A study of Mus musculus with 8 samples.

Results

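Secondary (specific) and tertiary (gelatinase) granule genes were followed in cultured mouse bone marrow cells with and without the microRNA miR-223. They were taken by array identifier, as 6 probe sets of 5 genes: Ltf (1450009_AT), Ngp (1418722_AT), Lcn2 (1427747_A_AT) and Chil3, also called Ym1 (1419764_AT), of the secondary granules, and Mmp9 (1416298_AT and 1448291_AT) of the tertiary granules. These are 6 of the 45101 probe sets of an Affymetrix mouse array. The 8 arrays formed 4 groups of 2: miR-223 null and wild-type mature neutrophils at day 8, and miR-223 null and wild-type progenitors at day 4. Day 8 cells had been grown for 6 days in the presence of G-CSF (granulocyte colony-stimulating factor) and SCF (stem cell factor), then for 42 hours without SCF, and cells that carried Gr-1 but no c-Kit were sorted. Day 4 cells had been grown for 4 days in both factors, and cells that carried c-Kit but no Gr-1 were sorted. All cultures were in SILAC-IMDM, a medium made for isotope labelling of proteins. The labels give neither the mouse strain nor whether replicates came from separate animals, so p-values measure the spread between arrays, which may be technical.

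Neutrophils fill their granules in the order in which the proteins are made. Primary granule proteins are made first, secondary granule proteins at the following stages of maturation, and gelatinase, which defines the tertiary granules, later still. C/EBP epsilon, a transcription factor of the late granulocyte, is needed for secondary granule proteins in mouse and human. miR-223 is a microRNA of myeloid cells that represses messenger RNAs through its seed, the bases that pair with the target.

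The deposited values are log2 signals, 1 per probe set and array, with array medians between 5.44 and 5.50. A log2 difference of 1 is a doubling of signal, and signals of different probe sets are not on 1 scale, so each probe set was compared with itself across arrays. Replicates of a group correlated at 0.993 to 0.997 across the 22519 tested probe sets. Those were the ones with a mean of at least 5.51, and all 6 granule probe sets were above that value on every array. As a check of stage, the transferrin receptor, which imports iron into dividing cells, had between 6.12 and 6.49 at its 3' control probe set at day 8, against 8.56 to 9.17 at day 4. No probe set on these arrays was paired here with Kit, with Ly6g (the Gr-1 antigen of neutrophils), with miR-223 or with markers of macrophages, eosinophils or other cells, so these were not analysed here. In bulk RNA such as this, fewer cells of a type and less RNA per cell cannot be told apart.

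The sequences of the deleted microRNA are shown first, because its absence is what sets the null cells apart. They are RNA from RefSeq (GRCm38.p6, plus strand), 5′ to 3′, with the seed (bases 2 to 8) in capitals, and lie within the Mir223 gene on the X chromosome (chrX:96242817-96242926).
mmu-miR-223-3p (chrX:96242884-96242905): uGUCAGUUugucaaauacccca
mmu-miR-223-5p (chrX:96242842-96242864): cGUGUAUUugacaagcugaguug

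The 5 genes lie on 3 chromosomes. In the RefSeq annotation (GRCm38.p6), Ltf (chr9:111019292-111042766) and Ngp (chr9:110419808-110423012) are both on chromosome 9, Lcn2 (chr2:32384637-32387739) and Mmp9 (chr2:164940326-164955850) on chromosome 2, and Chil3 (chr3:106147554-106167564) on chromosome 3. No promoter of Mmp9 was available here, so it was not searched for motifs. The promoters of the 4 secondary granule genes are shown. Each is the 250 bases before the annotated start, 5′ to 3′ on the gene's strand, from RefSeq, with matches to 2 motifs in capitals. The motifs, searched on both strands, were TTNNGNAA for C/EBP factors and GAGGAA for PU.1, a myeloid transcription factor.
Ltf (chr9:111019042-111019291, plus strand): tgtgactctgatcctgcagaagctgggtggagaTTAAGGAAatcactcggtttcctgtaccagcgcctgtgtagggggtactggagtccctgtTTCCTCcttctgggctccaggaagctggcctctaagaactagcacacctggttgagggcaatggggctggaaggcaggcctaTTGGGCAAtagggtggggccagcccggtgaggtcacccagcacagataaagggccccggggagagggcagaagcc
Ngp (chr9:110419558-110419807, plus strand): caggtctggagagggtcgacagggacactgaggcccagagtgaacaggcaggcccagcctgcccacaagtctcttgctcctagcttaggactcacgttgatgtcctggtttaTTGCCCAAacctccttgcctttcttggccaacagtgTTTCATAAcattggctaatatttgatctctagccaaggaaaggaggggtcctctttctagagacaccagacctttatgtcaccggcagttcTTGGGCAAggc
Lcn2 (chr2:32387740-32387989, minus strand): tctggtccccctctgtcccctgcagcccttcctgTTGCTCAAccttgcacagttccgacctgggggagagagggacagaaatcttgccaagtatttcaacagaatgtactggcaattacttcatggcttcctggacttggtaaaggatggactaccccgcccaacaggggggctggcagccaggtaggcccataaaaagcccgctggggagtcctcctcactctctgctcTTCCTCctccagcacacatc
Chil3 (chr3:106167565-106167814, minus strand): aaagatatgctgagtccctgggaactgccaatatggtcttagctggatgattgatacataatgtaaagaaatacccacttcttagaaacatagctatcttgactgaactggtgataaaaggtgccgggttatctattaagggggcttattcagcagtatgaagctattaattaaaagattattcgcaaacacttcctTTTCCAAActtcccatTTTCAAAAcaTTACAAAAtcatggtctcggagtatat
All 4 windows hold the C/EBP letters, with 2 matches in Ltf, 3 in Ngp, 1 in Lcn2 and 3 in Chil3, and no match overlaps another. Of 32851 mouse promoter windows of this length, 36.8% hold at least 1 such match. The PU.1 letters stand once in Ltf and once in Lcn2, and 23.3% of all windows hold them. The match nearest to a start is that of Ngp, TTGGGCAA, from 11 to 4 bases upstream, and the same 8 letters stand in Ltf from 75 to 68 bases upstream. A match of letters is a description of the window and shows no binding.

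The first question was how far each gene rises between progenitor and mature neutrophil. All 6 probe sets rose in null cells and all 6 rose in wild-type cells, by 2.08-fold (Ngp in wild type) to 118.9-fold (Mmp9 in wild type). Mmp9 rose most, Ltf next, and Chil3, Lcn2 and Ngp less. Called means a Benjamini-Hochberg adjusted p below 0.05 in limma. So many probe sets changed between these stages (36% of those tested were called higher at day 8 in null cells, 35.5% in wild type) that the calls alone say little, and the sizes are given gene by gene.

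Ltf encodes lactoferrin, an iron-binding antibacterial protein. It had 14.54 and 14.49 in null cells at day 8 (replicates 1 and 2), against 8.91 and 8.77 in null cells at day 4. In wild type it had 14.50 and 14.52 at day 8, against 9.71 and 9.68 at day 4. The stages were far apart on every array, and the rise was 51.1-fold in null cells (log2 change 5.68, SE 0.06) and 28.2-fold in wild type (4.82, SE 0.06). Only 49 of 22519 tested probe sets rose more than Ltf in wild type.

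Ngp encodes neutrophilic granule protein, a relative of the cathelicidins and cystatins. It had 14.81 and 14.95 in null cells at day 8, against 12.61 and 12.59 in null cells at day 4. In wild type it had 14.79 and 14.89 at day 8, against 13.98 and 13.58 at day 4. Null progenitors thus carried 20.7% of the day 8 signal of their genotype, and wild-type progenitors 48.0%. The rise was 4.83-fold in null cells (log2 change 2.27, SE 0.10) and 2.08-fold in wild type (1.06, SE 0.10).

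Lcn2 encodes lipocalin 2, which binds the siderophores with which bacteria take up iron. It had 14.28 and 14.29 in null cells at day 8, against 12.11 and 12.11 in null cells at day 4. In wild type it had 14.18 and 14.36 at day 8, against 12.66 and 12.48 at day 4. Its day 4 signal was 22.1% of that at day 8 in null cells and 30.8% in wild type. It rose 4.54-fold in null cells (log2 change 2.18, SE 0.07) and 3.25-fold in wild type (1.70, SE 0.07).

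Chil3 encodes Ym1, a chitinase-like lectin made in mice by neutrophils and their precursors and also by macrophages. It had 13.97 and 13.97 in null cells at day 8, against 10.45 and 10.19 in null cells at day 4. In wild type it had 13.97 and 14.01 at day 8, against 11.89 and 11.40 at day 4. Its day 4 signal was 7.97% of that at day 8 in null cells and 19.7% in wild type. The rise was 12.5-fold in null cells (log2 change 3.65, SE 0.13) and 5.08-fold in wild type (2.34, SE 0.13).

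Mmp9 encodes gelatinase B, a metalloprotease that cleaves denatured collagen. At 1448291_AT it had 12.85 and 12.82 in null cells at day 8, against 6.12 and 6.25 in null cells at day 4. In wild type it had 12.90 and 13.00 at day 8, against 5.95 and 6.16 at day 4. These day 4 values lay only 0.47 to 0.81 above the array medians. The rise was 100.04-fold in null cells (log2 change 6.64, SE 0.09) and 118.9-fold in wild type (6.89, SE 0.09). The other probe set, 1416298_AT, rose 78.8-fold in null cells and 84.6-fold in wild type.

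In wild type the measured rises ran in the order Mmp9, Ltf, Chil3, Lcn2 and Ngp, and the 95% intervals of neighbours in that order did not overlap. In null cells Mmp9, Ltf and Chil3 kept that order, but the intervals of Lcn2 (2.03 to 2.34) and Ngp (2.04 to 2.50) overlapped. These intervals do not cover a limit at the top of the scale, where Ngp lay within 0.17 and Ltf within 0.53 of the highest signal of each day 8 array, so the order is one of measured rises. All 12 rises had an adjusted p of 2.8e-06 or less in limma. The median rise of the 6 probe sets was 4.66 in null cells and 3.58 in wild type on the log2 scale, beside 0.00 and -0.04 over all tested probe sets. The signal at the 3' end of a transcript minus that at the 5' end is a measure of how intact RNA is. For beta-actin it was 0.10 to 0.17 on the log2 scale at day 8, against 0.36 to 0.44 at day 4. For Gapdh, another control gene, it was -0.08 to -0.03 at day 8, against -0.02 to 0.05 at day 4. The part of RNA condition in the rises was not tested.

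**Figure D1:**
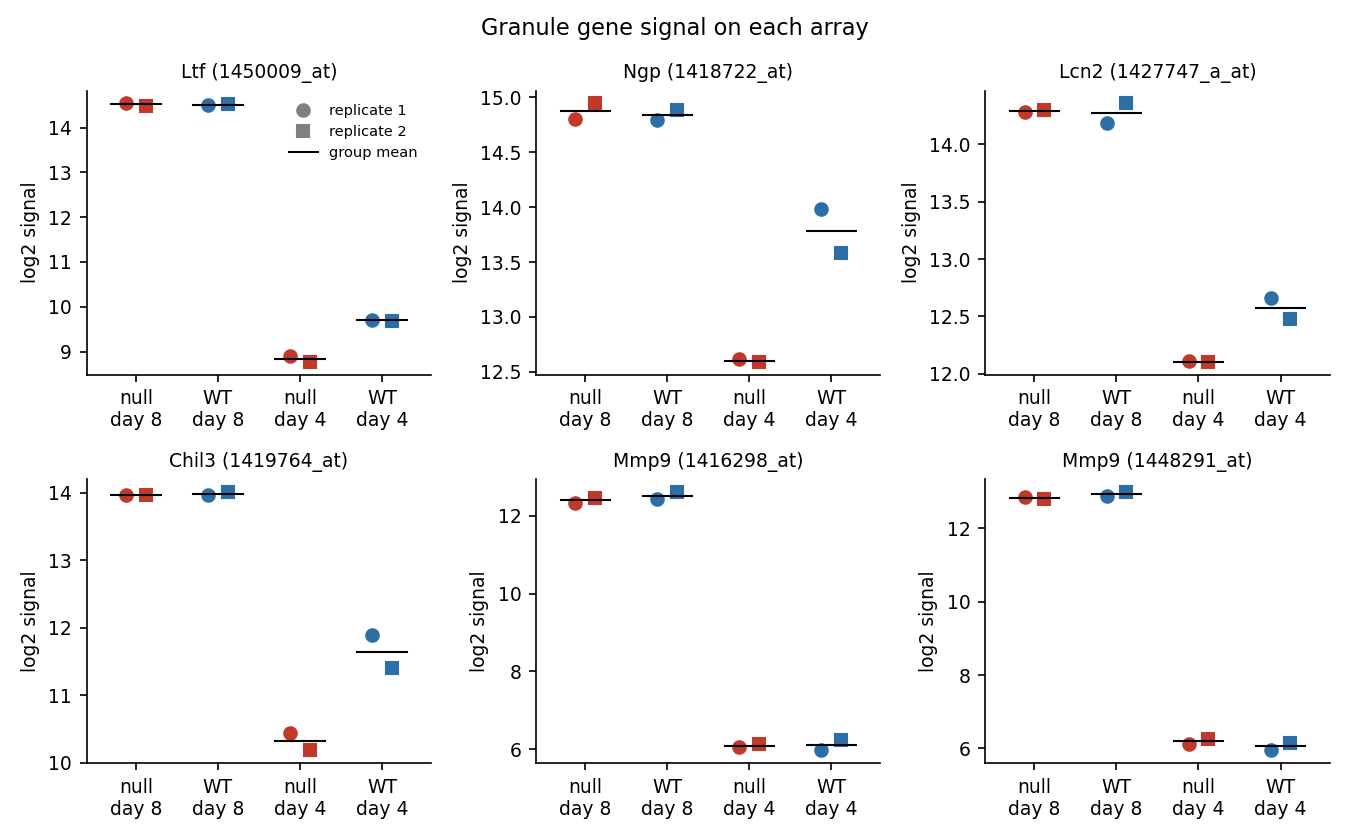
Log2 signal of the 6 probe sets (vertical axis, 1 panel per probe set, each with its own range) on the 8 arrays in the 4 groups. Points are arrays and bars are means of 2. At day 8 null and wild-type means lie close together in every panel, while at day 4 the null means of Ltf, Ngp, Lcn2 and Chil3 are lower.

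**Figure D2:**
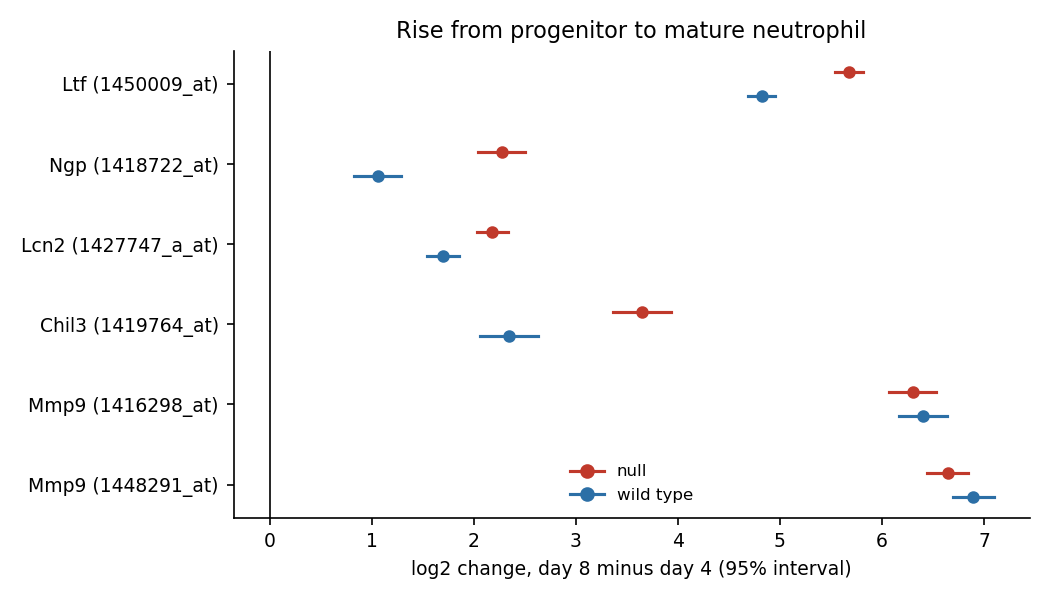
Log2 change from day 4 to day 8 (horizontal axis) with the 95% interval of the limma fit, for null and wild-type cells. The rises run from 1.06 (Ngp, wild type) to 6.89 (Mmp9, wild type), and those of the secondary granule genes lie farther right in null cells.

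The next comparison asked whether progenitors without miR-223 differ in these genes. All 4 secondary granule genes were lower in null progenitors at day 4, and Mmp9 was not called. Chil3 was 2.51-fold lower, Ngp 2.26-fold, Ltf 1.81-fold and Lcn2 1.38-fold. Across all tested probe sets 2.14% were called lower in null cells at day 4, against 4 of the 6 granule probe sets (those of Ltf, Ngp, Lcn2 and Chil3). The 6 were chosen with earlier results of these arrays known.

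Chil3, at 10.32 ± 0.19 in null and 11.65 ± 0.34 in wild-type progenitors (SD, n = 2 each), had a log2 change of -1.33 (SE 0.13, limma adjusted p = 0.00067). Ngp, at 12.60 ± 0.02 in null and 13.78 ± 0.28 in wild-type progenitors, had one of -1.18 (SE 0.10, limma adjusted p = 0.00041). For both genes the gap between genotypes was more than the wild-type replicates differed from each other (0.48 for Chil3 and 0.40 for Ngp). Among all tested probe sets, 15 changed further down than Chil3 and 27 further than Ngp.

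Ltf was lower by less but with little spread, at 8.84 ± 0.10 in null and 9.69 ± 0.03 in wild-type progenitors (SD, n = 2 each), with a log2 change of -0.85 (SE 0.06, limma adjusted p = 0.00013). There were 84 probe sets with a larger fall. Lcn2, at 12.11 ± 0.003 in null and 12.57 ± 0.13 in wild-type progenitors, changed by -0.46 (SE 0.07, limma adjusted p = 0.0082), and 588 probe sets fell further. The call of Lcn2 was lost in 6 of 18 alternatives. It was lost without wild-type day 4 replicate 1 (-0.37, adjusted p = 0.0501), null day 4 replicate 1 (adjusted p = 0.0606) or null day 4 replicate 2 (adjusted p = 0.0655). Over the alternatives its adjusted p ran between 0.0031 and 0.0746. Those of Ltf, Ngp and Chil3 were made in all 18, with adjusted p at most 0.0229.

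Mmp9 was called at neither probe set. At 1416298_AT it had 6.06 and 6.13 in null progenitors, against 5.97 and 6.25 in wild-type ones, and the groups overlapped (log2 change -0.02, 95% interval -0.25 to 0.21). At 1448291_AT the change was 0.13, with a 95% interval of -0.07 to 0.33. Both intervals lie above the fall in signal measured for Lcn2, Ltf, Ngp or Chil3. However, the day 4 values of both Mmp9 probe sets lay only 0.47 to 0.81 above the array medians. How far such low signal could hide a fall was not tested.

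**Figure D3:**
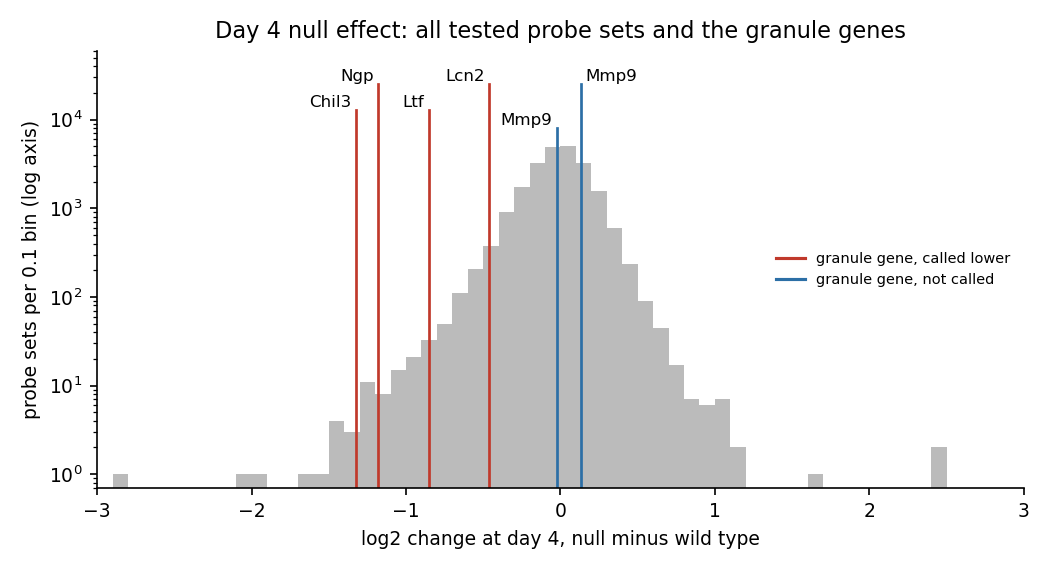
Number of tested probe sets (vertical log axis) by log2 change at day 4, null minus wild type, in bins of 0.1. Vertical lines mark the granule probe sets; the height of a line carries no value. Chil3 (-1.33), Ngp (-1.18) and Ltf (-0.85) lie in the thin left tail, Lcn2 (-0.46) on its shoulder and both Mmp9 probe sets near 0. There are 5 probe sets outside the plotted range.

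The day 4 arrays also differed in their overall distance from the day 8 arrays. On the first principal component of the other 22513 tested probe sets, which held 94.8% of the variance and parted the days, day 8 arrays lay between 90.7 and 100.3. The null day 4 arrays lay at -98.4 and -100.3 (replicates 1 and 2) and the wild-type day 4 arrays at -84.0 and -95.0. The 4 day 4 arrays had the same order on this axis as in the signal of Ltf, of Ngp, of Lcn2 and of Chil3. Between the 2 null arrays this order rested on very small gaps for Lcn2 (12.1095 in replicate 1 against 12.1057 in replicate 2) and Ngp (12.6147 against 12.5921). Neither Mmp9 probe set had this order, and how many of the other probe sets had it was not counted. The part of this position in the differences was not tested. Wild-type day 4 replicate 1 exceeded replicate 2 by 0.48 for Chil3, 0.40 for Ngp, 0.18 for Lcn2 and 0.04 for Ltf. For Mmp9, replicate 1 minus replicate 2 was -0.28 at 1416298_AT and -0.21 at 1448291_AT. Without wild-type day 4 replicate 1, the array nearest to day 8, the changes were -1.08 for Chil3, -0.98 for Ngp and -0.84 for Ltf, all still called in limma with adjusted p at most 0.0015.

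**Figure D4:**
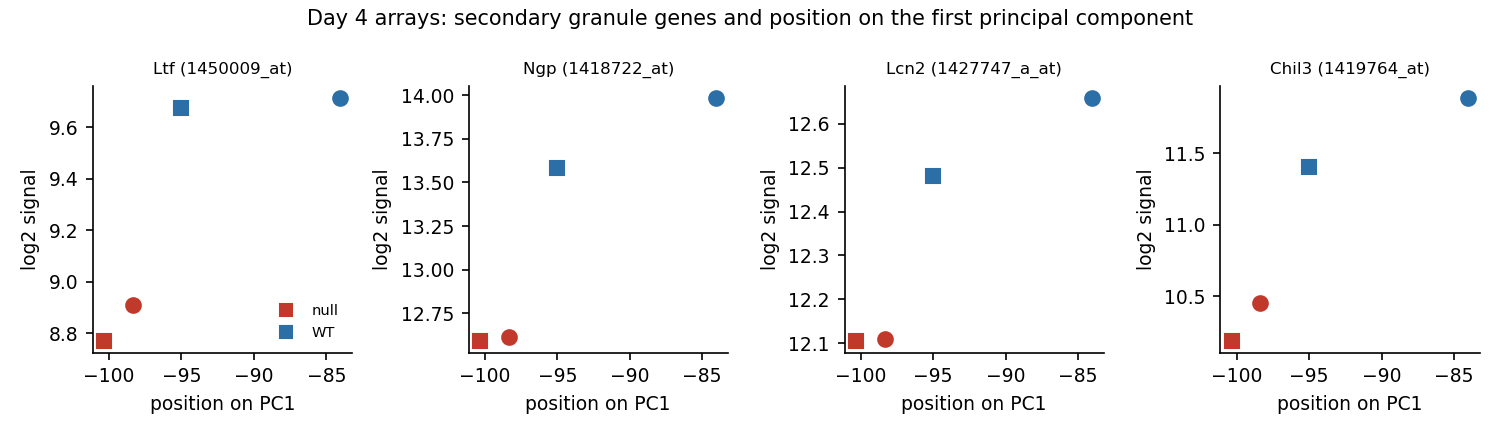
Log2 signal of the 4 secondary granule probe sets (vertical axes) against the position of the 4 day 4 arrays on the first principal component (horizontal axes, larger values nearer day 8). Circles are replicate 1 and squares replicate 2. In each panel wild-type replicate 1 is farthest right and highest, and the null arrays are farthest left and lowest.

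The same contrast was made in mature neutrophils. At day 8 no granule probe set was called between null and wild type. Limma called 0 of 6, beside 5.31% of all tested probe sets called. At an unadjusted p below 0.05 in limma the count was also 0 of 6, and the share of all tested probe sets below that value was not counted. Null and wild-type values of all but 1448291_AT overlapped. With 2 arrays against 2, groups that do not overlap reach a two-sided exact permutation p of only 0.333. The share of such groups over all tested probe sets was not counted. Ltf had 14.52 ± 0.03 in null and 14.51 ± 0.01 in wild-type neutrophils (SD, n = 2 each), a ratio of 1.00 with a 95% interval of 0.91 to 1.10. The intervals of the ratio were 0.874 to 1.202 for Ngp, 0.911 to 1.128 for Lcn2 and 0.808 to 1.201 for Chil3.

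Mmp9 was the only gene with a change beyond 0.1 on the log2 scale at day 8. At 1448291_AT it had 12.85 and 12.82 in null neutrophils, against 12.90 and 13.00 in wild-type ones, so both null arrays were lower (log2 change -0.12, 95% interval -0.31 to 0.08, limma adjusted p = 0.53). At 1416298_AT the change was -0.12 (limma adjusted p = 0.58) and the groups overlapped. Both 95% intervals cover 0.

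Signals at day 8 were close to the top of the scale for the secondary granule genes. Ngp lay 0.05 to 0.17 below the highest signal of each day 8 array, and Ltf 0.36 to 0.53 below it. Lcn2 lay 0.64 to 0.70 and Chil3 0.89 to 1.04 below it, while Mmp9 lay 1.96 to 2.59 below. How far this limits the differences that could be seen at day 8 was not tested.

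**Figure D5:**
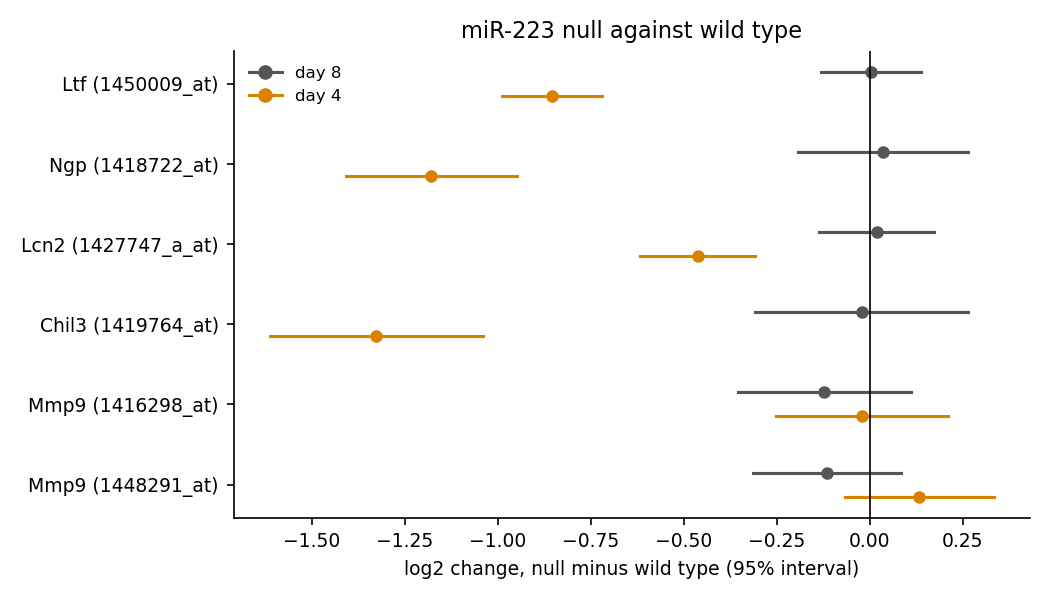
Log2 change, null minus wild type (horizontal axis), with the 95% interval of the limma fit, at day 8 and at day 4. At day 8 every interval covers 0, while at day 4 those of Ltf, Ngp, Lcn2 and Chil3 lie wholly below 0, from -1.61 (Chil3) to -0.31 (Lcn2).

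The dependence of the null effect on stage was tested directly, as the null effect at day 8 minus that at day 4, which is also the extra rise in null cells. It was positive and called for Chil3 (1.31, SE 0.18, limma adjusted p = 0.010), Ngp (1.21, SE 0.15, adjusted p = 0.0062), Ltf (0.86, SE 0.09, adjusted p = 0.0055) and Lcn2 (0.48, SE 0.10, adjusted p = 0.042). Of all tested probe sets 1.55% had such a positive difference called. Null cells were thus lower in these 4 genes at day 4 and were not called different from wild type at day 8. This difference uses the same arrays as the comparisons above and adds no independent evidence to them. Its day 8 part was measured near the top of the scale, with Ngp within 0.17 and Ltf within 0.53 of the highest signal. How far this adds to the difference was not tested.

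The calls of Ltf and Ngp held in all 17 alternatives. That of Chil3 was lost in 4 (adjusted p from 0.0010 to 0.0579 over all 17), among them without wild-type day 8 replicate 1 (1.28, adjusted p = 0.0579) or replicate 2 (1.33, 0.0506) or null day 8 replicate 2 (1.31, 0.0534). That of Lcn2 was lost in 12 of 17, which include the fits without any 1 array other than wild-type day 4 replicate 2 and the fit with the replicate number as a block (adjusted p = 0.0541). Its adjusted p reached 0.346 when arrays were scaled to the hybridization controls. For Mmp9 the difference was -0.10 (95% interval -0.43 to 0.23) at 1416298_AT and -0.25 (-0.53 to 0.03) at 1448291_AT.

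The 2 probe sets of Mmp9 served as a check on each other. The log2 signal of 1416298_AT minus that of 1448291_AT was -0.51 and -0.37 on null day 8 arrays and -0.47 and -0.39 on wild-type day 8 arrays. It was -0.06 and -0.13 on null day 4 arrays and 0.03 and 0.09 on wild-type day 4 arrays. The shift between the days, -0.42, parted all 4 day 8 arrays from all 4 day 4 arrays (exact permutation test, two-sided p = 0.0286, the smallest that 4 against 4 allows). Between null and wild type the shift was -0.01 at day 8 (exact p = 1) and -0.15 at day 4 (exact p = 0.333, the smallest that 2 against 2 allows). Both probe sets thus rose in every comparison of the days, and 1416298_AT rose less than 1448291_AT. The day 4 values of both lay only 0.47 to 0.81 above the array medians. The part of such low signal in the shift between the days was not tested.

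Which probe sets followed the granule genes most closely was asked by the root mean square difference of the log2 profiles over the 8 arrays, each profile centred on its own mean. Only 4 of 22513 other tested probe sets lay within 0.25 of Mmp9 (1448291_AT), 6 within 0.25 of Ltf, 10 of Chil3 and 24 of Ngp, but 675 of Lcn2. Few probe sets thus lay near Mmp9 and Ltf on these arrays, and many near Lcn2. This distance is not scaled to the size of the rise, so a large rise by itself leaves few neighbours. In wild type 5 probe sets rose more than Mmp9 (1448291_AT), 49 more than Ltf and 1202 more than Lcn2. The nearest to Mmp9 was 1418847_AT (0.12) and the nearest to Lcn2 was 1451860_A_AT (0.06), neither of which the files pair with a gene. Among the granule genes themselves, Ngp and Lcn2 were the most alike (0.30), apart from both Mmp9 probe sets (0.22), and Ngp and Mmp9 the least (2.60 for 1448291_AT).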

How the data were processed

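Gene expression was measured on 8 single-colour Affymetrix mouse arrays, hybridized with biotin-labelled material from total RNA. The deposited table holds 1 log2 value per probe set and array. No label states the log base, which was taken from the range of the values. Per the submitters' processing notes GCOS was used (no version). How probes were summarized, corrected for background and normalized is not given in the sources used here. Since array medians were nearly equal, values were used as deposited. A normalization that equalizes arrays would hide a change in total messenger RNA per cell.

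Probe sets other than the 64 controls with a mean at or above their median (5.51) were tested, 22519 in all. With limma 3.58.1 under R 4.3.3, the 4 groups were fitted in 1 model (lmFit, eBayes with trend, 4 residual degrees of freedom), with p-values two-sided and adjusted by Benjamini-Hochberg over all probe sets tested in each of the 5 comparisons. Only the limma fit was tested on simulated data, with planted changes between null and wild type at day 4. Precision is limited by the number of arrays (typical SE of a difference between 2 groups 0.115, the median over probe sets). The granule genes and the lists were chosen with earlier results of these data known. Gene names come from the identifiers by which the genes were chosen, since the files pair no identifier with a gene. Lists of other granule genes, regulators and cell type markers were therefore not analysed here, and of the 10 nearest profiles that the rule for named features takes (2 per gene), 2 are named. Alternatives were 4 normalizations, 2 filters, 2 moderations, a fit of the 4 arrays of a contrast alone, the replicate number as a block, and leaving out each array in turn. Sequences are from RefSeq tables (GRCm38.p6): all 5 genes were found in the gene table and 4 in the promoter table.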

Additional observations from a re-analysis of the deposited data

Results flagged for a closer look

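The null effect on 4 secondary granule genes differed between the days by the interaction term of the limma model (null effect at day 8 minus that at day 4, 2 arrays per group). The difference was 1.31 on the log2 scale for Chil3 (adjusted p = 0.010), 1.21 for Ngp (adjusted p = 0.0062), 0.86 for Ltf (adjusted p = 0.0055) and 0.48 for Lcn2 (adjusted p = 0.042). The call of Lcn2 was lost in 12 of 17 alternatives, 7 of them fits without 1 array, and that of Chil3 in 4 of 17, 3 of them fits without 1 array. In each gene both null arrays were below both wild-type arrays at day 4, and the genotypes overlapped at day 8. With 2 arrays against 2, such a separation reaches a two-sided exact permutation p of only 0.333. Its share over all tested probe sets was not counted. No group had enough arrays to look for a single array that stands apart. The day 8 signals of these genes lay near the top of the scale, and the part of this in the difference was not tested.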

How the results depend on the processing

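The rises of all 6 probe sets in both genotypes, and the absence of a call between genotypes at day 8, were the same in all 18 alternatives, and no called change reversed. At day 4 between 3 and 4 probe sets were called lower in null cells, 3 where Lcn2 was lost. For the difference between the days the count of 4 became 2 without the intensity trend, where Lcn2 and Chil3 were lost (adjusted p = 0.155 and 0.0529), and lay between 2 and 4 when 1 array was left out (2 without null day 8 replicate 2 or either wild-type day 8 array). The causes were not tested. The distance of the probe set nearest to Ltf was 0.17, and 0.23 with the filter at the upper quartile, where fewer probe sets were compared and that for Mmp9 was 0.18 in place of 0.12. The distance of the one nearest to Ngp was 0.16, and 0.047 after quantile normalization.

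Counts over all tested probe sets moved more. At day 4 the 613 calls became 222 without the trend, 98 with the 4 arrays of the contrast alone, 217 without wild-type day 4 replicate 1, 1674 without its replicate 2, 129 or 140 without 1 null day 4 array (replicate 1 or 2), and 397 or 401 without 1 null day 8 array (replicate 1 or 2). At day 8 the 1195 became 694 when scaled to the 18 hybridization controls, 747 without the trend, 355 or 523 without 1 null day 8 array (replicate 1 or 2), and 608 or 401 without 1 wild-type day 8 array (replicate 1 or 2). The 373 calls of the difference ranged from 48 to 893 when 1 array was left out, and were 209 after quantile normalization, 198 after cyclic loess, 124 when scaled to the controls and 129 without the trend. At the upper quartile filter, which tests fewer, 9673 (null) and 9601 (wild type) were called between the days, against 17085 and 17374. Scaling to the controls moved the median change between the days to -0.35 in null and -0.21 in wild type. The labels do not say that replicate numbers mark shared animals or days, and replicate differences correlated at -0.045 to 0.216 between groups. With the replicate block 3 probe sets were called in the difference between the days (Lcn2 0.48, adjusted p = 0.0541, was lost), and no other call changed. No background level was measured here. Values of Ngp and Ltf lay near the highest of each day 8 array, and how far this limits what could be seen at day 8 was not tested.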
